A study of Canis lupus familiaris with 4 samples.

Results

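The enzymes that carry glucose to pyruvate, store it as glycogen, divert it to the pentose phosphate pathway and gate the fate of pyruvate were followed as a group of 37 genes in Madin-Darby canine kidney (MDCKII) cells. A gene was measured only if a probe set of the array carried its symbol alone, and where several did, the probe set with the highest mean intensity stood for the gene. Of the 37 genes, 35 had such a probe set, out of 15115 genes on the array that did. *LDHB* and *TALDO1* had none. Of the 35, 31 reached an intensity of 28.75 on at least 1 array, the median of all values, and entered the comparisons with 9749 genes in all.

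MDCKII is an epithelial line from dog kidney that forms polarised sheets. The study used it to ask what hypoxia-inducible factor 2α (HIF2α, gene *EPAS1*) does in kidney epithelia, by RNA interference. RNA of whole cultures was hybridised to Affymetrix canine arrays in 4 conditions, with 1 array each. These were HIF2α-KD cells in hypoxia, HIF2α-KD cells in normoxia, control cells in hypoxia and control cells in normoxia. All cells had a day of normoxia and then 24 h in hypoxia or normoxia. HIF2α-KD cells had been made by retroviral delivery of a short hairpin RNA against HIF2α and puromycin selection, and the study names 1 such line for its array experiment in normoxia. The controls carry the label wild type, and the study describes its control cells as infected with a retrovirus holding an empty hairpin cassette. A change in every cell and a change in the share of cells that express a gene cannot be told apart in such RNA.

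Array medians lay between 28.2 and 29.1. Control reporter probe sets, which target no dog gene, reached 20.6 to 27.2 at their 95th percentile and serve here as the background level. All 5 measured kidney epithelial markers were above this level, the dimmest being *CDH16* at 89.1 to 134. All 5 fibroblast markers were at or under it on every array, as were 3 of 4 endothelial and 1 of 4 immune markers. The remaining endothelial marker, *CDH5*, read 88.8 to 117, close to *CDH16*, and the remaining immune markers reached at most 45.3. Neither *CDH5* nor these immune markers passed 2-fold. Of the 7 hypoxia genes used to check the labels, 5 passed the intensity filter, and all 5 were at least 2-fold higher in hypoxia in both cell lines. *CA9* and *BNIP3* did not pass it, lay near the background at 15.3 to 28.4 and give no check. *EPAS1* itself read 32.6 in HIF2α-KD cells in hypoxia against 116 in control cells in hypoxia, and 47.9 in HIF2α-KD cells in normoxia against 44.6 in control cells in normoxia. On this probe set, dim on every array but control hypoxia, the transcript was lower only on the hypoxic array labelled HIF2α-KD. By RT-qPCR the study reports reduced HIF2α mRNA in each of its knockdown lines. These cells are called HIF2α-KD-labelled below.

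In glycolysis, glucose is phosphorylated, split into trioses and oxidised to pyruvate, with a small yield of ATP that needs no oxygen. Lactate dehydrogenase turns pyruvate into lactate, while the pyruvate dehydrogenase complex sends it into the mitochondrion and is switched off by pyruvate dehydrogenase kinases. Many glycolytic genes are textbook targets of hypoxia-inducible factors, and several steps have more than 1 isoform with a different response to oxygen.

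Over the 4 arrays, 11 of the 15 measured glycolytic genes, *LDHA*, *PDK1* and *AK4* rose in hypoxia, while no glycogen or pentose phosphate gene passed the test. The glycolytic genes *HK1*, *HK2*, *PFKM* and *PFKP* did not pass it on their brightest probe sets either. The other *HK1* and *HK2* probe sets were more than 2-fold higher in hypoxia in both lines. In HIF2α-KD-labelled cells 9 of the 31 genes were at least 2-fold higher in hypoxia, against 1.38% of all genes, and in control cells 8 of 31 were, against 3.05%. None was 2-fold lower in hypoxia, where the shares of all genes were 0.421% in HIF2α-KD-labelled cells and 0.544% in control cells. The same 8 genes, *PDK1*, *ALDOC*, *AK4*, *PFKFB3*, *PKM*, *PFKL*, *GPI* and *PGK1*, passed this size in both lines, as did 0.882% of all genes. *ENO2* made the ninth in HIF2α-KD-labelled cells. Differences are given on the scale of log2(intensity + 16), on which a value of 1 is 2-fold and which understates changes of dim genes.

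With 1 array per condition no pair of arrays can be tested. The only test was limma over all 4 arrays, which fitted an oxygen term and a cell line term with 1 residual degree of freedom and assumes the same hypoxia difference in both lines. Its p-values rest on the spread left between these 4 arrays, moderated for each gene towards that of all genes of like intensity. They hold no spread between replicates. Limma called 14 of the 31 genes higher in hypoxia, against 2.4% of all genes, and none lower, against 0.421%. Without the intensity filter it called 8, and without a mean-dependent prior 7. In each of the 14, both hypoxic arrays lay above both normoxic arrays, which is no separate support because the calls used the same arrays. That order was seen in 19 of the 31 genes and in 27.1% of all genes, and the reverse order in *GYS1*, *PGD* and *PYGB* and in 22.6% of all genes. The median difference of the 31 genes was 0.36 in HIF2α-KD-labelled cells, beside 0.02 for all genes, and 0.41 in control cells, beside 0.03 for all genes.

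**Figure D1:**
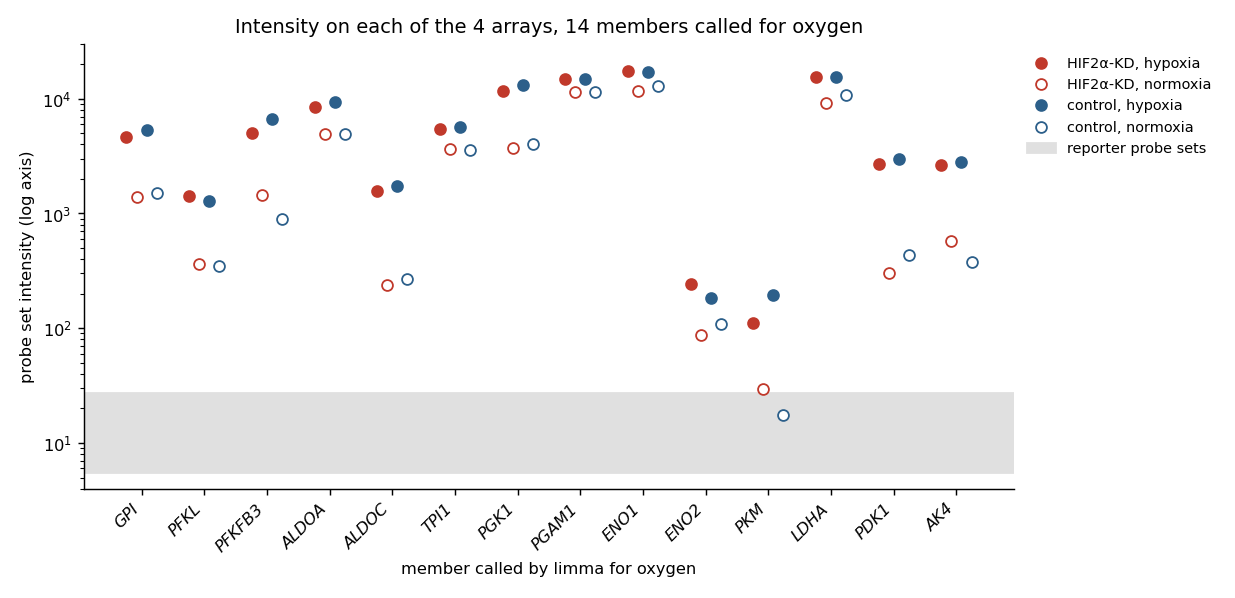
Probe set intensity (log axis) of the 14 genes that limma called higher in hypoxia, in pathway order, with 1 point per array (left to right: HIF2α-KD hypoxia, HIF2α-KD normoxia, control hypoxia, control normoxia). Grey shading spans the reporter probe sets, with their lowest array median at its foot and their highest 95th percentile (27.2) at its top. Filled hypoxic points lie above open normoxic points in every gene, and only *PKM* in control normoxia (17.5) falls in the shading.

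The 2 hypoxia comparisons use separate arrays, and across the 31 genes their differences correlated with a Pearson r of 0.919, beside 0.527 across all genes. Genes are not independent replicates, and the coefficients are descriptions. Of the 31 genes, 20 were above 0 in both lines, as were 36.1% of all genes. In the group 5 were below 0 in both and 6 had opposite signs, for which the shares of all genes were not counted.

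**Figure D2:**
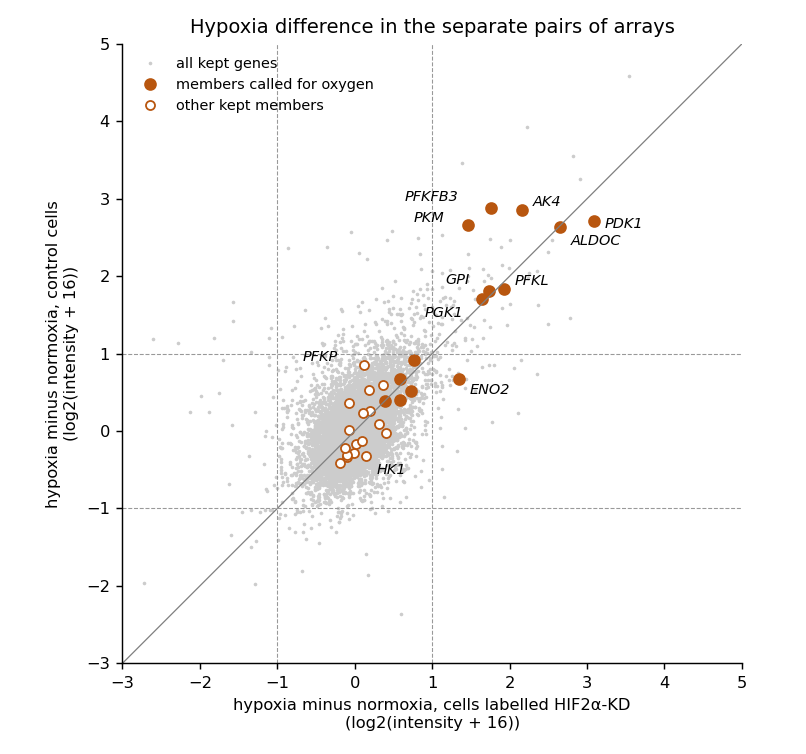
Hypoxia minus normoxia on the log2(intensity + 16) scale in cells labelled HIF2α-KD (horizontal axis) and in control cells (vertical axis), 1 point per gene. Large points are the enzymes, filled where limma called oxygen, small grey points are all 9749 genes, dashed lines mark 2-fold and the diagonal marks equal differences. *PDK1*, *ALDOC*, *PFKL*, *GPI* and *PGK1* lie near the diagonal, *PFKFB3*, *PKM* and *AK4* above it and *ENO2* below it.

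At the step after glucose phosphorylation, *GPI*, which converts glucose 6-phosphate to fructose 6-phosphate, had 4676 in hypoxia against 1397 in normoxia in HIF2α-KD-labelled cells. In control cells it had 5319 in hypoxia against 1503 in normoxia. The differences were 1.73 in HIF2α-KD-labelled and 1.81 in control cells, and limma gave 1.77 ± 0.11 (SE, adjusted p = 0.00155).

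The 3 phosphofructokinase isoforms catalyse the committed step. Their hypoxia differences were not alike, but the isoforms were not tested against each other, and *PFKM* and *PFKP* had 1 probe set each. *PFKL*, the liver type, read 1431 in hypoxia against 366 in normoxia in HIF2α-KD-labelled cells, and 1284 in hypoxia against 348 in normoxia in control cells (limma 1.88 ± 0.14, adjusted p = 0.00288). *PFKM*, the muscle type, read 213 in hypoxia against 157 in normoxia in HIF2α-KD-labelled cells, and 198 in hypoxia against 201 in normoxia in control cells. *PFKP*, the platelet type, read 494 in hypoxia against 452 in normoxia in HIF2α-KD-labelled cells, and 712 in hypoxia against 385 in normoxia in control cells. Only *PFKL* passed the limma test among the isoforms of this step, and the adjusted p was 0.554 for *PFKM* and 0.229 for *PFKP*. The difference of *PFKP* was 0.13 in HIF2α-KD-labelled cells and 0.86 in control cells. That contrast rests on 4 single arrays and was not tested.

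*PFKFB3* encodes the enzyme that makes fructose 2,6-bisphosphate, the strongest activator of phosphofructokinase. It reached 4980 in hypoxia against 1461 in normoxia in HIF2α-KD-labelled cells, and 6706 in hypoxia against 896 in normoxia in control cells. The hypoxia difference was 1.76 in HIF2α-KD-labelled cells, the 31st highest of 9749 genes, and 2.88 in control cells, the 6th highest. Limma gave 2.32 ± 0.244 (adjusted p = 0.00805). The other family members in the group, *PFKFB2* and *PFKFB4*, lay between 3.53 and 16.4 on all arrays, within the background, and no difference could be measured for them.

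The aldolases, which split fructose 1,6-bisphosphate, showed a large and a smaller difference. *ALDOC* read 1577 in hypoxia against 237 in normoxia in HIF2α-KD-labelled cells, and 1739 in hypoxia against 266 in normoxia in control cells. Its differences of 2.65 in HIF2α-KD-labelled and 2.64 in control cells were nearly equal (limma 2.64 ± 0.139, adjusted p = 0.000747). *ALDOA* read 8464 in hypoxia against 4963 in normoxia in HIF2α-KD-labelled cells, and 9427 in hypoxia against 4961 in normoxia in control cells (limma 0.85 ± 0.0879, adjusted p = 0.00805). Intensities of different probe sets are not comparable, so the share of each isoform in the aldolase RNA is not known.

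Triosephosphate isomerase, *TPI1*, was 0.58 higher in hypoxia in HIF2α-KD-labelled cells (5468 against 3654) and 0.67 higher in control cells (5642 against 3550), and passed the limma test (adjusted p = 0.0268). For *GAPDH*, which oxidises glyceraldehyde 3-phosphate, the probe set with its symbol alone read 1.33 and 1 in HIF2α-KD-labelled cells and 2.47 and 1 in control cells in hypoxia and normoxia. These values lie under the reporter median of each array and give no usable level for this abundant transcript. *PGK1*, which makes the first ATP of the pathway, had 11611 in hypoxia against 3688 in normoxia in HIF2α-KD-labelled cells, and 13130 in hypoxia against 4012 in normoxia in control cells. Its limma difference of 1.68 ± 0.0823 (adjusted p = 0.000747) had the smallest p-value of the group.

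Phosphoglycerate mutase and enolase, the next steps, passed the test, with differences under 2-fold on the brightest probe sets of *PGAM1* and *ENO1*. *PGAM1* read 14921 in hypoxia against 11412 in normoxia in HIF2α-KD-labelled cells, and 15003 in hypoxia against 11499 in normoxia in control cells (limma 0.38 ± 0.0649, adjusted p = 0.0359). *ENO1*, the widely expressed enolase, read 17502 in hypoxia against 11681 in normoxia in HIF2α-KD-labelled cells, and 17202 in hypoxia against 12966 in normoxia in control cells (limma 0.50 ± 0.071, adjusted p = 0.0227). The brightest probe set read 19271 on the HIF2α-KD-labelled and 19341 on the control hypoxic array. *PGAM1* and *ENO1* lay nearer to this top in hypoxia than in normoxia. *ENO2*, the enolase best known from neurons, read 244 in hypoxia against 86.6 in normoxia in HIF2α-KD-labelled cells, and 183 in hypoxia against 109 in normoxia in control cells. Its difference was 1.34 in HIF2α-KD-labelled cells and 0.67 in control cells, and its adjusted p was the highest among the calls (limma 1.01 ± 0.188, adjusted p = 0.0471). The call was lost under 5 of the alternative settings, and the mean of its probe sets differed by 0.64 in HIF2α-KD-labelled cells.

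*PKM*, pyruvate kinase, had a dim probe set. It read 110.5 in hypoxia against 29.8 in normoxia in HIF2α-KD-labelled cells, and 195 in hypoxia against 17.5 in normoxia in control cells (limma 2.06 ± 0.274, adjusted p = 0.0182). The control normoxia value is under the background level, so with that array set to the floor of 27.2, the highest 95th percentile of the reporters, *PKM* was at least 4.89-fold higher in hypoxia in control cells.

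**Figure D3:**
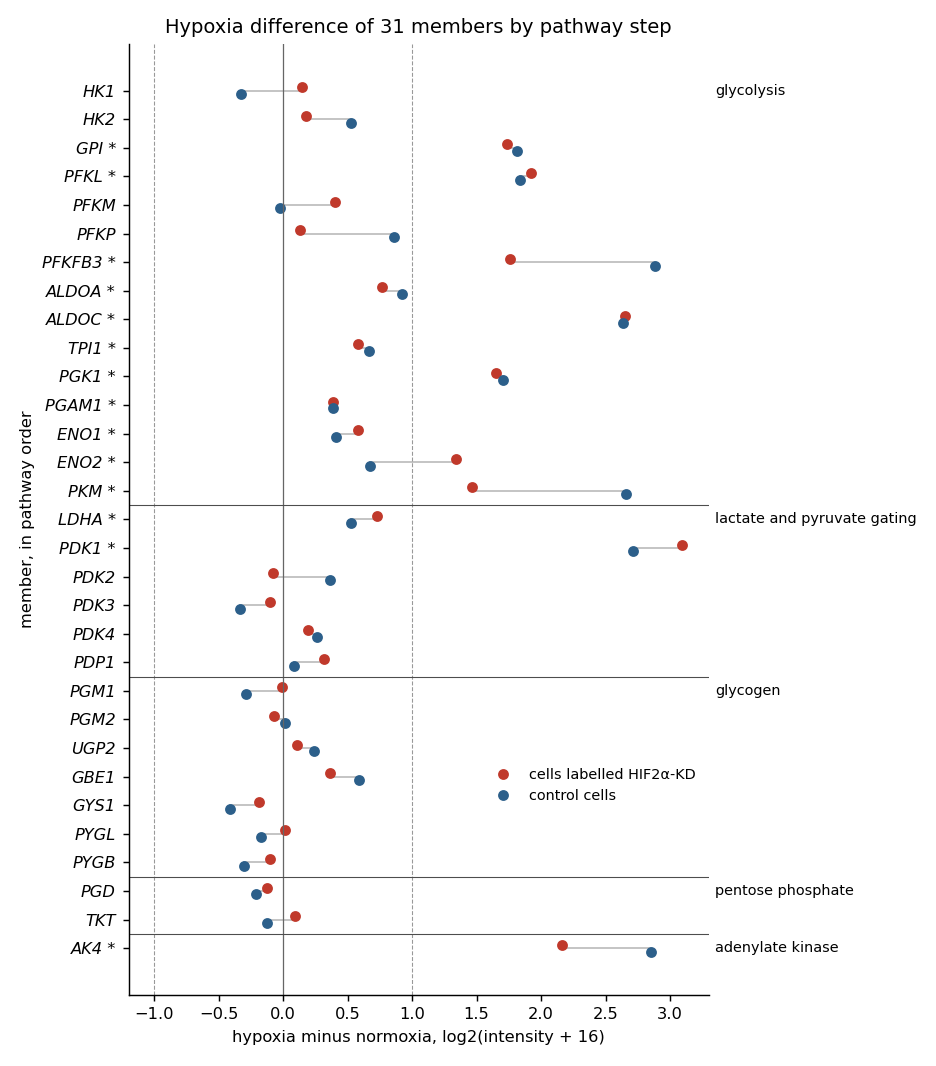
Hypoxia minus normoxia on the log2(intensity + 16) scale for the 31 measured genes in pathway order, with 1 point per cell line, red for cells labelled HIF2α-KD and blue for control cells. Dashed lines mark 2-fold and asterisks mark the 14 genes that limma called for oxygen. Calls fall on 11 of 15 glycolytic genes, on *LDHA* and *PDK1* among the pyruvate genes and on *AK4*, and on none of the glycogen and pentose phosphate genes.

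At the pyruvate branch, 2 of 6 measured genes rose in hypoxia. *PDK1*, a kinase that inactivates pyruvate dehydrogenase, had the largest limma difference of the group. It read 2711 in hypoxia against 303 in normoxia in HIF2α-KD-labelled cells, and 2956 in hypoxia against 438 in normoxia in control cells. The differences were 3.09 in HIF2α-KD-labelled cells, second of 9749 genes, and 2.71 in control cells, 8th and behind *PFKFB3* and *AK4* (limma 2.90 ± 0.152, adjusted p = 0.000747). The other kinases of the family did not pass the test.

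*PDK2* read 63.1 in hypoxia against 67.5 in normoxia in HIF2α-KD-labelled cells, and 75.8 in hypoxia against 55.2 in normoxia in control cells. *PDK3* read 429 in hypoxia against 462 in normoxia in HIF2α-KD-labelled cells, and 321 in hypoxia against 409 in normoxia in control cells. *PDK4* stayed near the background, with 33.6 in hypoxia against 27.4 in normoxia in HIF2α-KD-labelled cells and 28.3 in hypoxia against 20.9 in normoxia in control cells. The limma differences of these kinases lay between -0.22 and 0.23, so on the brightest probe sets only *PDK1* of 4 kinases passed the test. The opposing phosphatase *PDP1* was dim and was not called. With the floor of 27.2 its differences were 0.12 in HIF2α-KD-labelled cells and 0.09 in control cells.

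*LDHA*, the lactate dehydrogenase subunit that favours lactate production, passed the test with a difference under 2-fold. Like *ENO1*, it lay nearer to the top of the arrays in hypoxia than in normoxia. Its dimmer probe set differed by 0.96 in HIF2α-KD-labelled and 0.64 in control cells. On the brightest probe set the values were as follows. *LDHA* read 15385 in hypoxia against 9269 in normoxia in HIF2α-KD-labelled cells, and 15537 in hypoxia against 10806 in normoxia in control cells (limma 0.63 ± 0.0773, adjusted p = 0.0143).

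None of the 7 measured glycogen genes passed the test in either direction. As read, their differences lay between -0.19 and 0.36 in HIF2α-KD-labelled cells and between -0.42 and 0.59 in control cells, with medians of -0.01 in HIF2α-KD-labelled cells and -0.17 in control cells. On the brightest probe sets *GBE1*, the branching enzyme, had the largest hypoxia differences of this block (limma adjusted p = 0.137). It read 336 in hypoxia against 258 in normoxia in HIF2α-KD-labelled cells, and 338 against 219 in control cells. Its other probe set read 11.9 in hypoxia against 24.6 in normoxia in HIF2α-KD-labelled cells, both under 27.2, and 44.3 against 33.1 in control cells. *GYS1*, the glycogen synthase outside the liver, was under the background level on both hypoxic arrays, with 28.5 in normoxia in HIF2α-KD-labelled cells and 38.7 in normoxia in control cells. With the floor of 27.2 its differences were -0.04 in HIF2α-KD-labelled cells and -0.34 in control cells. The mutases *PGM1* and *PGM2*, *UGP2*, which makes UDP-glucose, and the phosphorylases *PYGL* and *PYGB*, which release glucose 1-phosphate, all lay under the *GBE1* differences on the brightest probe sets. *PPP1R3C*, which brings protein phosphatase 1 to glycogen, stayed within the background on all arrays. In the pentose phosphate pathway, *PGD* of the oxidative branch and *TKT* of the non-oxidative branch were bright. On the brightest probe sets they differed by -0.13 and 0.09 in HIF2α-KD-labelled cells and by -0.21 and -0.13 in control cells, without a call. A dimmer *PGD* probe set had the opposite sign, at 0.02 in HIF2α-KD-labelled cells and 0.53 in control cells (681 in hypoxia against 468 in normoxia). A further one was near the background.

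*AK4*, a mitochondrial nucleotide kinase, was grouped with these enzymes and rose in hypoxia. It read 2652 in hypoxia against 579 in normoxia in HIF2α-KD-labelled cells, and 2836 in hypoxia against 378 in normoxia in control cells (limma 2.51 ± 0.187, adjusted p = 0.00288).

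The probe set that stood for a gene mattered for the size of some differences. The 35 genes had 84 probe sets of their own, 70 of them above the intensity filter, and 23 genes had at least 2. Of the 70, 25 were at least 2-fold higher in hypoxia in HIF2α-KD-labelled cells, where 1.48% of all 17194 filtered probe sets were, and 27 were in control cells, against 3.61%. None was 2-fold lower, against 0.506% of all in HIF2α-KD-labelled cells and 0.611% in control cells. In the 13 called genes with further probe sets, every probe set above the filter read higher in hypoxia in both lines, but the further *PKM* probe set was within the background on both HIF2α-KD-labelled arrays and gives no direction there. *ALDOA*, *TPI1*, *PGAM1*, *ENO1* and *LDHA* had larger differences on each of their dimmer probe sets than on the brightest.

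*ENO1* showed this most: its other probe sets differed by 1.51 to 2.04 in HIF2α-KD-labelled cells and by 1.34 to 1.69 in control cells. The brightest of them read 10247 in hypoxia against 3595 in normoxia in HIF2α-KD-labelled cells, and 11479 in hypoxia against 4533 in normoxia in control cells. The hexokinases, which phosphorylate glucose, were chosen for mention here after their values were seen. The brightest *HK1* probe set differed by 0.15 in HIF2α-KD-labelled cells and by -0.33 in control cells, and that of *HK2* by 0.18 in HIF2α-KD-labelled cells and 0.53 in control cells, without a call. The other *HK1* probe sets differed by 1.02 to 1.27 in HIF2α-KD-labelled cells and by 1.77 to 1.85 in control cells, and the other *HK2* probe set by 1.42 in both. Probe sets of the same hexokinase gene thus disagreed in size, and for *HK1* in control cells in direction. *ENO2* went the other way, with further probe sets at 0.10 and 0.49 in HIF2α-KD-labelled cells and at 0.02 and 0.13 in control cells. The other *PDK2* probe set, also named after its values were seen, read 31.2 in hypoxia against 21.1 in normoxia in HIF2α-KD-labelled cells, and 62.6 in hypoxia against 18.1, under the background level, in normoxia in control cells. Which transcripts each probe set reads was not tested.

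**Figure D4:**
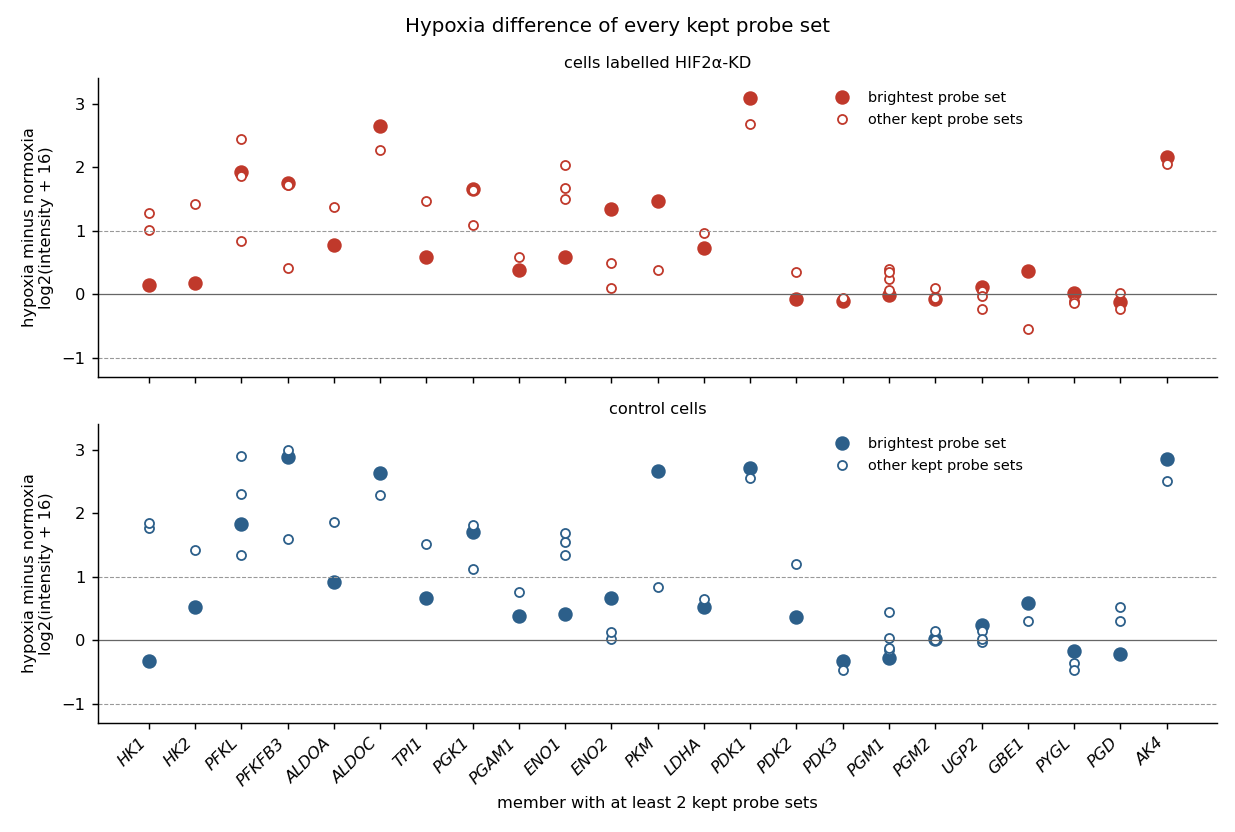
Hypoxia minus normoxia on the log2(intensity + 16) scale for each probe set above the filter of the 23 genes that have at least 2, in cells labelled HIF2α-KD (upper panel) and control cells (lower panel). Large filled points are the brightest probe set of a gene and open points the others, with dashed lines at 2-fold. The other *HK1*, *HK2*, *ALDOA*, *TPI1* and *ENO1* probe sets lie above 1 in both panels while the brightest lie under it.

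The HIF2α knockdown was compared with the control at each oxygen level. None of the 31 genes differed 2-fold. In hypoxia the shares of all genes were 0.103% higher and 0.882% lower in HIF2α-KD-labelled cells, and in normoxia they were 0.615% higher and 0.544% lower. Limma called no gene for the knockdown term, here or over all genes (0% in each direction), with a smallest adjusted p of 0.588 in the group and 0.0594 over all. At an unadjusted p under 0.05 the same test held 0 of the 31 genes and 939 genes in all, 9.63%.

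The median knockdown difference of the group was -0.03 in hypoxia and -0.06 in normoxia, beside -0.04 for all genes at both oxygen levels. Of the 31 genes, 26 were within 0.5 of equality at both oxygen levels, 13 were lower in HIF2α-KD-labelled cells at both and 5 were higher at both. The shares of all genes were not counted here, so these counts only describe the group. The largest differences in hypoxia were -0.74 for *PKM*, -0.51 for *PFKP* and 0.49 for *HK1*, and the largest in normoxia were 0.70 for *PFKFB3*, 0.59 for *AK4* and -0.51 for *PDK1*. Across the group, knockdown differences in hypoxia and in normoxia, which use separate arrays, correlated with a Pearson r of -0.314, beside 0.171 across all genes.

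**Figure D5:**
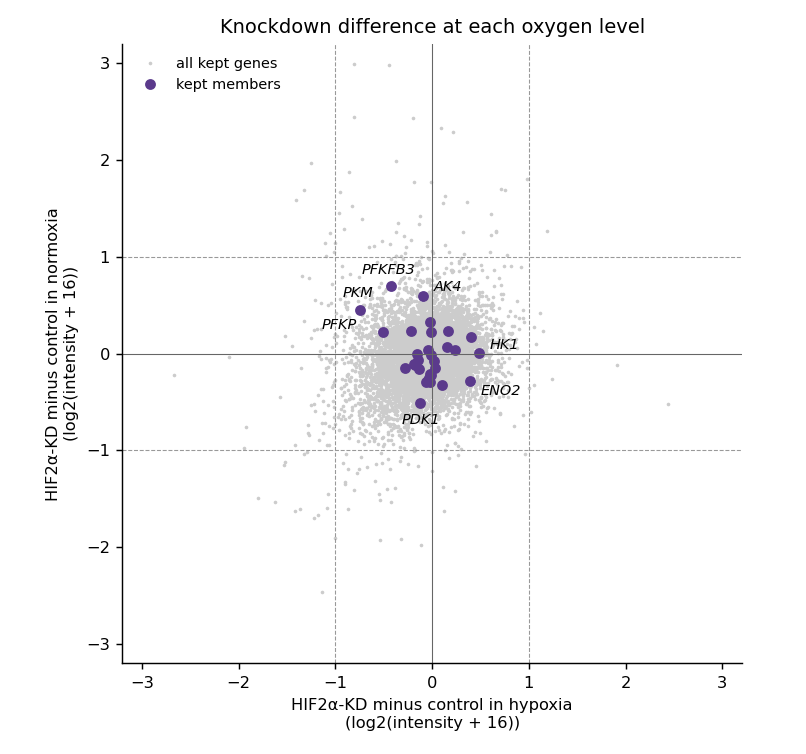
HIF2α-KD minus control on the log2(intensity + 16) scale in hypoxia (horizontal axis) and in normoxia (vertical axis), 1 point per gene, with the 31 enzymes as large points, all 9749 genes in grey and dashed lines at 2-fold. Every enzyme lies inside the 2-fold lines, and *PFKFB3* and *PKM* lie at upper left, lower than control in hypoxia and higher in normoxia.

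The hypoxia difference itself was at least 1 smaller in HIF2α-KD-labelled cells than in control cells for *PFKFB3* (-1.12) and *PKM* (-1.19), a size reached by 1.78% of all genes, and at least 1 larger for none of the group, against 0.759% of all genes. Of the other *PFKFB3* probe sets above the filter, both gave a smaller hypoxia difference in HIF2α-KD-labelled cells, by -1.27 and -1.18. Another *PKM* probe set was within the background on all arrays but control hypoxia and gives no gap. With the floor of 27.2 the *PKM* value was -0.82. On the brightest probe sets the gap was -0.69 for *AK4*, with hypoxia differences of 2.16 in HIF2α-KD-labelled and 2.85 in control cells. It was 0.38 for *PDK1*, 0.02 for *ALDOC*, 0.08 for *PFKL*, -0.08 for *GPI* and -0.06 for *PGK1*, beside an SD of 0.403 over all genes. The other *PFKL* probe sets gave -0.43, -0.45 and -0.50, the other *AK4* probe set -0.45 and the other *ALDOC* probe set -0.01. With single arrays none of these gaps could be tested.

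Neighbouring steps were read from 75 further genes in 6 lists, which cover other glycolytic and gluconeogenic enzymes, glucose and lactate transporters, the pyruvate dehydrogenase complex, other glycogen enzymes, other pentose phosphate enzymes and other adenylate kinases. Of these, 66 had a probe set of their own and 41 passed the filter. Limma called 5 of the 41 higher in hypoxia and 1 lower, where the shares of all genes were 2.4% higher and 0.421% lower, and the median difference of the 41 was 0.02 in HIF2α-KD-labelled cells and 0.06 in control cells. The lactate carriers *SLC16A1* and *SLC16A3* rose, and *SLC16A7* was within the background. *SLC16A1* read 595 in hypoxia against 196 in normoxia in HIF2α-KD-labelled cells, and 690.3 in hypoxia against 183 in normoxia in control cells (limma 1.68 ± 0.151, adjusted p = 0.00525). *SLC16A3* read 111 in hypoxia against 30.5 in normoxia in HIF2α-KD-labelled cells, and 116 in hypoxia against 31.6 in normoxia in control cells (limma 1.46 ± 0.149, adjusted p = 0.00774).

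The glucose transporter *SLC2A1* rose by 0.80 ± 0.0777 (SE, limma adjusted p = 0.00675), short of 2-fold in both lines. *ADPGK*, an ADP-dependent glucokinase, rose by 1.06 (limma adjusted p = 0.0471), with 61.4 in hypoxia against 29.8 in normoxia in HIF2α-KD-labelled cells and 87.8 in hypoxia against 24.2, under the background level, in normoxia in control cells. With the floor of 27.2 the *ADPGK* difference in control cells was at least 1.26. *DLAT*, the acetyltransferase of the pyruvate dehydrogenase complex, rose by 0.91 (limma adjusted p = 0.0345), with 475 in hypoxia against 222 in normoxia in HIF2α-KD-labelled cells and 497 in hypoxia against 286 in normoxia in control cells. *PHKA2*, a subunit of the kinase that activates glycogen phosphorylase, was the gene called lower (limma adjusted p = 0.0325). It read 8.12 in hypoxia against 45.1 in normoxia in HIF2α-KD-labelled cells, and 20.6 in hypoxia against 58.5 in normoxia in control cells. Both hypoxic values were under the background level of 27.2, so *PHKA2* was at least 1.41-fold lower in hypoxia in HIF2α-KD-labelled cells and at least 1.72-fold lower in control cells. In the knockdown comparisons, only *PCK2*, mitochondrial phosphoenolpyruvate carboxykinase, passed 2-fold among the 41, with 308 in HIF2α-KD-labelled cells against 799.8 in control cells in normoxia. In hypoxia it read 441 in HIF2α-KD-labelled cells against 837 in control cells.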

How the data were processed

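The authors deposited linear intensities, 1 for each probe set on each array, from RNA labelled with biotin starting from 100 ng. The software, background correction, scaling and summarization are, like the genome build, not given in the sources used here, so no positions are given. Of 42924 probe sets, 29254 carry 1 gene symbol in the platform annotation, 439 several, 13167 none, and 64 are reporters (1 bright reporter was left out of the background). The deposited table holds no comparisons by the authors. Groups follow the labels, and the number of arrays, 1 per group, limits the precision of every value.

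Values were analysed as log2(intensity + 16) for probe sets reaching 28.75 on any array, the median of all non-reporter values. Pairs of arrays were described by differences and counts past 2-fold. limma (version 3.58.1 in R 4.3.3) fitted oxygen and cell line as additive terms with the prior variance depending on the mean, and p-values were adjusted by Benjamini-Hochberg over all 9749 genes at 0.05. The fit was tested on simulated data with the same oxygen effect in both lines and equal noise for every gene. That test does not cover genes whose hypoxia difference is unlike in the 2 lines. Tables and plots used Python 3.11.15, numpy 2.4.6, pandas 2.3.3 and matplotlib 3.10.9. Alternatives changed the normalization, filter, probe set choice, pseudocount and moderation. The genes and lists were chosen with earlier results of these data known. Values on every array are given for genes past 2-fold in a comparison or called by limma and for the isoforms of their steps, and for other pathway genes past 2-fold. *SLC2A1*, *SLC16A7*, the hexokinases and the other *PDK2*, *GBE1* and *PGD* probe sets were named after their values were seen. No sequences are shown.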

Additional observations from a re-analysis of the deposited data

Results flagged for a closer look

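In 3 genes of the group the knockdown difference had opposite signs at the 2 oxygen levels, each at least 0.25 in size on the log2(intensity + 16) scale. The share of all genes with this pattern was not counted. *PFKFB3* was -0.43 in HIF2α-KD-labelled cells against control cells in hypoxia and 0.70 in normoxia. *PKM* was -0.74 in hypoxia and 0.45 in normoxia, where the control value lies under the background level, and with the floor of 27.2 the normoxia difference was 0.08. *ENO2* went the other way, at 0.39 in hypoxia and -0.28 in normoxia. With 1 array per condition the difference between oxygen levels was not tested in any of them.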

How the results depend on the processing

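Alternatives were quantile normalization, cyclic loess, median centring, the mean of all probe sets of a gene, no intensity filter, a 75th percentile filter, pseudocounts of 1 and 64, limma without a mean-dependent prior and with robust moderation, and, chosen after seeing the data, a floor at the highest reporter 95th percentile. Of the hypoxia differences and oxygen terms of the 31 genes, *HK1* reversed: its control difference of -0.33 was 1.77 with the 75th percentile filter and 1.10 with the mean of probe sets, and its oxygen term 1.52 and 0.96 under these settings, both called. No other value past 2-fold or called turned its sign. The median knockdown difference in hypoxia was -0.03, but 0.03 with quantile normalization and 0.01 with cyclic loess. The limma oxygen calls numbered 8 with no filter and 7 without the mean-dependent prior, all of them among the 14, and 13 or 14 otherwise. With the mean of probe sets 12 of the 14 were kept, and with the 75th percentile filter 13 were. *ENO2* was lost under 5 settings and *PKM* under 3, *TPI1*, *PGAM1*, *ENO1* and *LDHA* under both settings with fewest calls, *ALDOA* without the mean-dependent prior and *PFKFB3* with robust moderation. *HK2* was called with the mean of probe sets. The 2 genes whose hypoxia difference was at least 1 smaller in HIF2α-KD-labelled cells were 1 with the mean of probe sets, 1 with a pseudocount of 64 and 1 with the floor. With the mean of probe sets *ALDOA*, *TPI1* and *ENO1* passed 2-fold in both lines, while *ENO2* (0.64) and *PKM* (0.92) did not in HIF2α-KD-labelled cells, and *PKM* did not there with a pseudocount of 64 (0.90). Over all genes, oxygen calls ranged between 63 with no filter and 577 with the floor for higher, and between 7 and 203 for lower, against 234 higher and 41 lower. Knockdown calls over all genes reached 16 with quantile normalization, 15 with median centring, 10 and 4 with pseudocounts of 1 and 64, 21 with robust moderation and 121 with the floor, none of them in the group. No paired analysis was possible because each condition has 1 array and the labels hold no shared replicate numbers, so leaving out a replicate was not possible either. The planned promoter motif search was not run.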
